A study of Mus musculus with 12 samples.

Results

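The mouse mitochondrial genome encodes 37 of the 57490 genes in the deposited count table of this kidney RNA-seq study. They were taken as every gene that the table places on the chromosome MT, with no use of measured values. By the biotypes given there, 13 are protein-coding, 2 are ribosomal RNA genes and 22 are transfer RNA genes. The study asked how kidney RNA differs in diabetic nephropathy and what Yiqi Huoxue Yangyin Decoction (YHY), a herbal water extract, changes in it. Kidneys came from 12 male mice on the BKS background, 13 weeks old, with 4 individual mice in each of 3 groups. Model mice were db/db (BKS.Cg-Dock7m +/+ Leprdb/JNju), which lack a functional leptin receptor, and were gavaged with purified water. Ctrl mice were age-matched db/m given the same volume of water. By the methods of the study they were heterozygous, so they carry 1 mutant allele of the leptin receptor gene, although their genotype label adds wild-type. YHY mice were db/db given the extract at 6.24 g/mL, with 50 µL for every 10 g a mouse weighed, once a day over 4 weeks. Which dose group of the study this was is not stated, and the labeled concentration and volume, if meant as extract, give a higher dose than any in its methods. Diabetic mice had been selected by their random blood glucose, and all came from 1 supplier. The labels describe the tissue as whole kidney, whereas the series text says renal cortex. Messenger RNA was enriched with oligo(dT) beads before Illumina sequencing, so RNA without a poly(A) tail should be largely missing.

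In mammals, both strands of the circular mitochondrial genome are transcribed into long RNAs that hold many genes. Transfer RNAs lie between most of the other genes, and their excision releases the messenger and ribosomal RNAs, most of which then receive a short poly(A) tail. The encoded proteins are core subunits of respiratory complexes I, III and IV and of ATP synthase, whose other subunits come from nuclear genes. The kidney tubule is rich in mitochondria, which power its reabsorption of salt and solutes.

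Of the 13 protein-coding genes, 12 lie on the plus strand of the mitochondrial sequence and 1, mt-Nd6, lies on the minus strand, beside 8 of the 22 transfer RNA genes. The ends of mt-Nd5 and mt-Nd6, a pair of complex I genes on opposite strands, share 14 bases. Both sequences are shown because the shares of these transcripts differed in every comparison below. Each is the last 30 bases of the gene on its own strand, from the GENCODE M21 transcripts (GRCm38), and the capitals mark the shared bases.
mt-Nd5: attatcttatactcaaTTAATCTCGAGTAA
mt-Nd6: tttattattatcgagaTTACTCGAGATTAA
The RNA that continues beyond mt-Nd5 on the plus strand runs through the mt-Nd6 locus in antisense. Whether the libraries were strand-specific, and how reads were counted over 2 genes or in 2 places, was not given in the sources used here. Counts of mt-Nd6 may therefore hold RNA of both strands. In human cells the messenger of this gene is known to lack a poly(A) tail.

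Counts of single libraries summed to between 24415658 (Model 4) and 33276634 (Ctrl 1). Mitochondrial genes took 18.6, 22.7, 18.4 and 18.5% of these counts in Ctrl 1 to 4. Their share was 41.2, 58.9, 55.3 and 53.4% in Model 1 to 4. In YHY 1 to 4 it was 53.8, 64.6, 54.6 and 54.2%. Every Model and YHY mouse was thus far above every Ctrl mouse, while the Model and YHY groups overlapped. Group means were 19.5% ± 2.12 for Ctrl, 52.2% ± 7.68 for Model and 56.8% ± 5.21 for YHY (SD, n = 4 each). The 95% Wilson interval of a single mouse was at most 0.0396 points wide, and such intervals cover counting error only. In bulk tissue, fewer cells of a type and less RNA per cell cannot be told apart, and the same holds for more mitochondrial RNA and less of the other RNA.

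**Figure D1:**
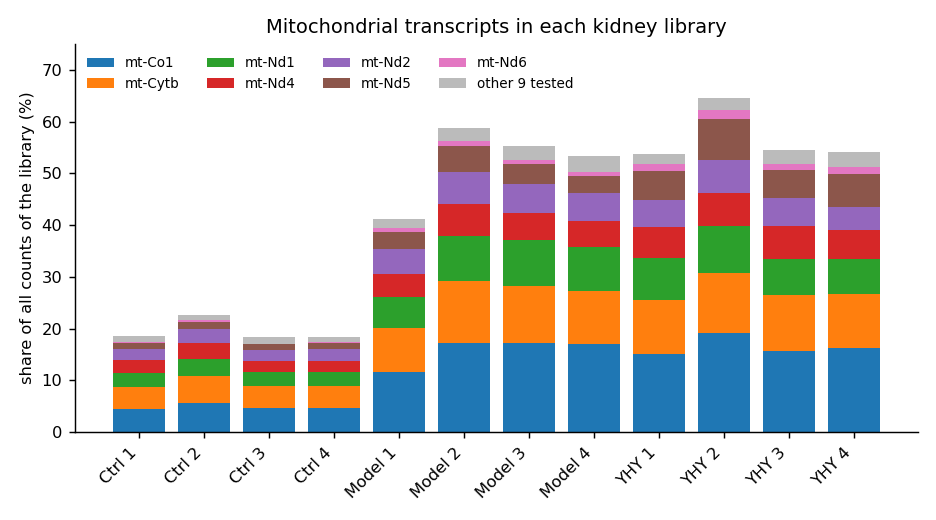
Share of all counts of each of the 12 kidney libraries, in percent, that fell on mitochondrial genes, stacked by transcript (the 7 most abundant by color, the other 9 tested in gray). The 4 Ctrl libraries reach 18.4 to 22.7%, the Model libraries 41.2 to 58.9% and the YHY libraries 53.8 to 64.6%.

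Raw counts moved in opposite directions in the mitochondrial and nuclear genomes. Both are parts of the same library total, so a higher share of one goes with a lower share of the other. Mitochondrial counts averaged 6264358 for Ctrl, 13806230 for Model and 15062871 for YHY. Nuclear genes averaged 25941581, 12856726 and 11523596 counts. The number of nuclear genes with at least 1 count was close between groups, at 21940 ± 278, 21367 ± 244 and 21503 ± 855 (SD, n = 4). Messenger RNAs made up nearly all of the mitochondrial counts, with 18.9% ± 2.13, 50.9% ± 7.37 and 55.4% ± 5.21 of the library in Ctrl, Model and YHY. Ribosomal RNAs held 0.638% ± 0.0505, 1.18% ± 0.368 and 1.40% ± 0.191, and transfer RNAs 0.0149% ± 0.00336, 0.0407% ± 0.00964 and 0.0432% ± 0.00564. All 3 classes had higher means in both db/db groups than in Ctrl, although the ribosomal share of Model 1, at 0.654%, lay within the Ctrl range.

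Levels of single genes are given as CPM (counts per 1000000 counts of the library) after TMM scaling, which sets the libraries level on most genes. A gene was called changed when its adjusted p from the edgeR quasi-likelihood test fell under 0.05 over all 17431 genes tested. Of the 37 mitochondrial genes, 16 passed the filter on low counts: the 13 messenger RNAs, both ribosomal RNAs and mt-Tp, the transfer RNA for proline. The lowest count of any of them in any mouse was 51, for mt-Atp8 in Ctrl 3.

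In Model against Ctrl, the question is what diabetes of this strain changes. All 16 tested mitochondrial transcripts rose, beside 19.6% of all genes tested that rose and 18.5% that fell. Their median log2 fold change was 1.87, with a range from 1.27 (mt-Rnr2) to 2.34 (mt-Nd6), while the median over all genes tested was 0.04. For 14 of the 16, every Model mouse exceeded every Ctrl mouse in CPM, as was so for 19.9% of all genes. The exceptions were mt-Atp8 and mt-Nd4l, the messengers with the lowest levels. Scaling by library size alone shifted the median of all genes to -0.39 and changed the split of all genes called from 3412 higher and 3219 lower to 1547 higher and 5667 lower. All 16 mitochondrial transcripts were called higher under it too.

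Complex I, which takes electrons from NADH, has 7 mitochondrial subunits. The CPM of mt-Nd5 was 8596, 12785, 8313 and 8535 in Ctrl 1 to 4 and 32031, 61537, 47052 and 35479 in Model 1 to 4. The groups did not overlap, and mt-Nd5 rose 4.61-fold (log2 2.204, SE 0.323, adjusted p = 0.000103). For mt-Nd6 the CPM was 1696, 2502, 1477 and 1528 in Ctrl against 6957, 12413, 9260 and 7897 in Model. The mt-Nd6 groups were likewise apart, with a rise of 5.07-fold (log2 2.34, SE 0.288, adjusted p = 2.68e-05). The other subunits rose by log2 1.91 (mt-Nd1), 1.61 (mt-Nd2), 1.39 (mt-Nd3), 1.58 (mt-Nd4) and 2.00 (mt-Nd4l), with SE from 0.234 to 0.514. The last of these rested on uneven mice, since mt-Nd4l was at 408 CPM in Model 2 and between 58.1 and 127 CPM in the other Model mice. Without Model 2 its log2 fold change was 1.08 (adjusted p = 0.0408).

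Cytochrome b, encoded by mt-Cytb, is the only mitochondrial subunit of complex III. Its CPM of 33561, 48133, 34484 and 31564 in Ctrl compared with 81926, 150513, 130286 and 108037 in Model, a rise of 3.19-fold (log2 1.67, SE 0.294, adjusted p = 0.000413). For mt-Co1, the catalytic subunit of cytochrome c oxidase (complex IV), CPM was 35653, 51482, 38045 and 35464 in Ctrl and 111341, 215536, 205660 and 176996 in Model. Both genes were higher in each Model mouse than in any Ctrl mouse, and mt-Co1 rose 4.42-fold (log2 2.14, SE 0.323, adjusted p = 0.000127). The remaining complex IV genes rose by log2 1.92 (mt-Co2) and 1.84 (mt-Co3). For the ATP synthase genes the values were 2.14 (mt-Atp6) and 1.63 (mt-Atp8, SE 0.468, adjusted p = 0.0122). The call of mt-Atp8 was lost without Model 2 (log2 1.145, adjusted p = 0.0690).

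The ribosomal RNAs, which form the core of the mitochondrial ribosome, had some of the smaller changes. CPM of mt-Rnr1, the small ribosomal RNA, was 2005, 2348, 2037 and 1616 in Ctrl and 2553, 6393, 6555 and 6483 in Model. For mt-Rnr2, the large one, it was 3149, 3461, 3666 and 2685 in Ctrl and 3721, 9101, 9280 and 9211 in Model. In both, Model 1 lay just above the Ctrl mice and far from the other 3 Model mice. They rose by log2 1.46 (SE 0.286, adjusted p = 0.000948) and 1.27 (SE 0.288, adjusted p = 0.00268). Ribosomal counts per 100 messenger counts were 3.60, 2.85, 3.96 and 3.23 for Ctrl, 1.62, 2.14, 2.47 and 2.90 for Model and 2.16, 2.19, 2.83 and 2.99 for YHY. Ctrl lay above Model and YHY except for Ctrl 2.

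**Figure D2:**
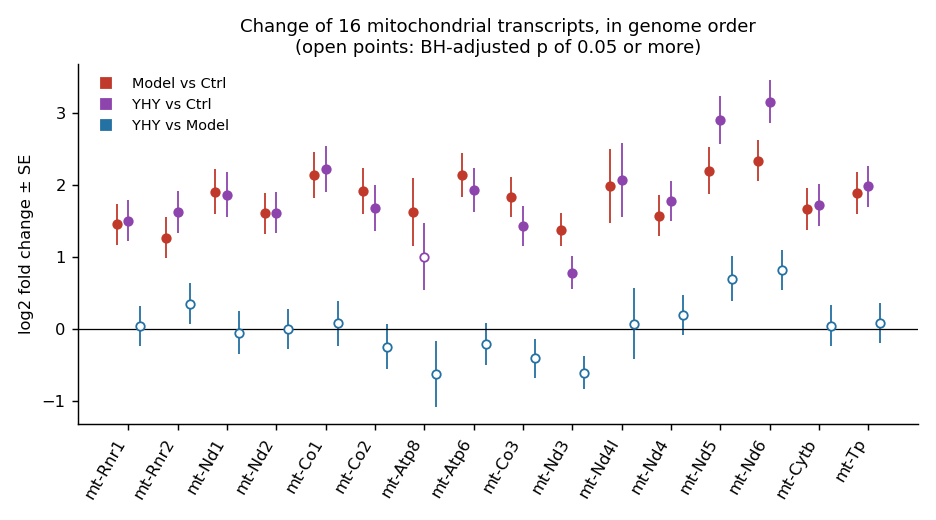
Log2 fold change (points) with its SE (bars) of the 16 tested mitochondrial transcripts, in the order of the genome, for Model against Ctrl, YHY against Ctrl and YHY against Model. Open points have an adjusted p of 0.05 or more. Against Ctrl the values lie between 0.79 and 3.16, and for YHY against Model between -0.62 and 0.82.

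Shares of the mitochondrial total do not depend on how libraries are scaled, so they show which transcripts gained and which lost ground within the mitochondrial pool. In Model against Ctrl, 6 of the 16 shares did not overlap between groups: those of mt-Co1, mt-Nd5 and mt-Nd6 were higher, and those of mt-Nd2, mt-Nd4 and mt-Cytb lower. Each has p = 0.0286 in a two-sided exact permutation test, the smallest value that 4 mice against 4 allow. The shares of a mouse sum to 100%, so these are not independent results, and no p was adjusted for the 16 genes.

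The share of mt-Co1 was 24.04, 24.5, 25.4 and 25.8% in Ctrl and 28.2, 29.2, 31.2 and 31.8% in Model. For mt-Nd5 it was 5.80, 6.09, 5.55 and 6.21% in Ctrl and 8.12, 8.33, 7.14 and 6.37% in Model. The mt-Nd6 share was 1.14, 1.19, 0.986 and 1.11% in Ctrl and 1.76, 1.68, 1.41 and 1.42% in Model. Each of these gained share in every Model mouse, by 1.21 times for mt-Co1, 1.27 times for mt-Nd5 and 1.41 times for mt-Nd6 in the group means. For mt-Nd5 the gap between the groups was small, with Model 4 just above Ctrl 4.

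On the other side, the share of mt-Cytb was 22.6, 22.9, 23.0 and 23.0% in Ctrl and 20.8, 20.4, 19.8 and 19.4% in Model. For mt-Nd2 it was 12.4, 12.3, 11.7 and 12.7% in Ctrl and 11.5, 10.4, 9.87 and 9.87% in Model. The share of mt-Nd4 was 13.1, 12.9, 11.7 and 11.4% in Ctrl and 11.01, 10.6, 9.66 and 9.55% in Model. Their levels rose as those of all tested transcripts did, but by less, so they made up less of the pool. The share of mt-Nd1, at 14.8% ± 0.338 in Ctrl and 15.3% ± 0.824 in Model, overlapped (exact p = 0.314). Ribosomal shares were lower on average, at 1.25% ± 0.123 and 0.918% ± 0.218 for mt-Rnr1 and 2.04% ± 0.334 and 1.31% ± 0.299 for mt-Rnr2 (SD, n = 4, exact p = 0.0571 each). They did not overlap without Ctrl 2 or without Model 4, where 8 shares stood apart.

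**Figure D3:**
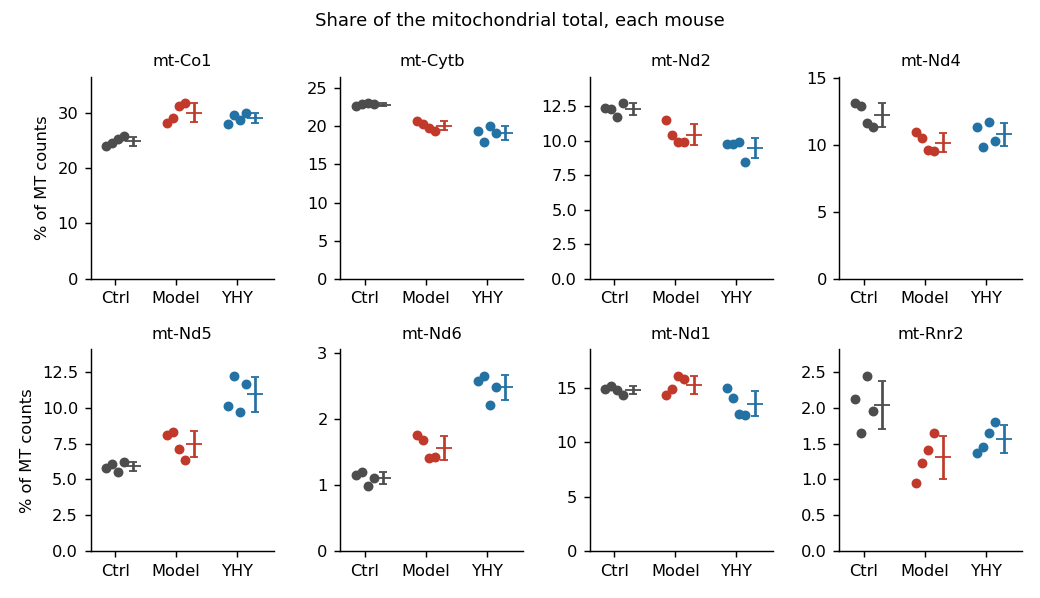
Share of the mitochondrial counts of each mouse, in percent, for 8 transcripts in Ctrl, Model and YHY (points, 4 mice each; bars, mean and SD). Mean shares of mt-Nd5 go from 5.91% to 7.49% and 10.9%, and those of mt-Nd6 from 1.11% to 1.57% and 2.48%.

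In YHY against Model, the question is what the extract changes in diabetic mice. None of the 16 transcripts was called changed by edgeR, beside 5.63% of all genes tested called higher and 7.62% called lower. At an unadjusted p under 0.05 there were 3 (mt-Nd3, mt-Nd5 and mt-Nd6), beside 28.6% of all genes in either direction. DESeq2 called 3 (mt-Nd5, mt-Nd6 and mt-Ts1, all higher), beside 7.93% of its genes called higher and 9.35% called lower. Members lay above 0 on the log2 scale for 10 transcripts and below for 6, with a median of 0.05 beside 0.02 over all genes. No transcript was higher in CPM in every YHY mouse than in every Model mouse, as 6.83% of all genes were, and 1, mt-Nd3, was lower in each, beside 9.28% of all genes. The counts by edgeR and of groups that did not overlap were thus below the shares over all genes.

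Within the pool, 3 shares did not overlap between YHY and Model. The share of mt-Nd5 in YHY was 10.1, 12.25, 9.73 and 11.7%, against the 6.37 to 8.33% of Model. For mt-Nd6 it was 2.57, 2.65, 2.22 and 2.49%, against 1.41 to 1.76%. Both were higher in every YHY mouse (exact p = 0.0286, the smallest possible), by 1.46 and 1.58 times in the means. In CPM the groups overlapped, at 52581, 110031, 51728 and 72891 for mt-Nd5 and 13364, 23842, 11793 and 15499 for mt-Nd6 in YHY. The log2 fold changes were 0.71 (SE 0.311, adjusted p = 0.145) and 0.82 (SE 0.276, adjusted p = 0.0606), with 1.63 and 1.77 as fold values. The mt-Nd6 difference was called without Model 2 (log2 1.00, adjusted p = 0.0437) and without YHY 3 (log2 0.94, adjusted p = 0.0444), and its adjusted p ran from 0.00898 to 0.175 over all alternatives. Without YHY 2 the values were lowest, at log2 0.57 for mt-Nd6 (adjusted p = 0.175) and 0.42 for mt-Nd5 (adjusted p = 0.384).

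The third transcript was mt-Nd3, another complex I subunit, whose share was lower. It was 0.103, 0.0611, 0.0767 and 0.0855% in Model and 0.0462, 0.0448, 0.0467 and 0.0517% in YHY (exact p = 0.0286). In CPM it was 406, 451, 506 and 476 in Model and 240, 402, 248 and 323 in YHY, with YHY 2 just under the lowest Model mouse. The log2 fold change was -0.60 (SE 0.231, adjusted p = 0.0978). Most of this gene is repeated in a nuclear copy described below, and with the counts of both summed the value was -0.41 (adjusted p = 0.235).

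The other 13 shares overlapped. That of mt-Co1 was 28.0, 29.7, 28.7 and 30.1% in YHY, within or near the Model range, and that of mt-Cytb was 19.4, 18.0, 20.0 and 19.1%. Without YHY 3, 5 shares stood apart, among them that of mt-Nd2, with a difference in means of -1.11 points. Log2 fold changes of the transcripts not yet given were 0.36 for mt-Rnr2, 0.20 for mt-Nd4, -0.62 for mt-Atp8, -0.40 for mt-Co3, -0.24 for mt-Co2 and -0.20 for mt-Atp6, and the rest lay between -0.05 and 0.09. Among the rest, mt-Nd4l was at 0.99 without Model 2 (adjusted p = 0.116). None of these can be told from 0 with the SE of 0.276 to 0.495 that 4 mice a group give.

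Ratios of counts between messengers are free of the other members of the pool, but they come from the same counts as the shares. They are therefore not an independent result. The share of mt-Cytb, the divisor in most of them, was itself lower in both db/db groups than in Ctrl. Counts of mt-Nd5 per 100 counts of mt-Cytb were 25.6, 26.6, 24.1 and 27.0 for Ctrl, 39.1, 40.9, 36.1 and 32.8 for Model and 52.0, 68.2, 48.6 and 61.2 for YHY. Counts of mt-Nd6 per 100 of mt-Cytb were 5.05, 5.20, 4.28 and 4.84 for Ctrl, 8.49, 8.25, 7.11 and 7.31 for Model and 13.2, 14.8, 11.1 and 13.0 for YHY. The 3 groups were fully apart in both ratios, in the order Ctrl, Model, YHY. Measured against mt-Nd4, which precedes it in the genome, mt-Nd5 had 48.4 ± 4.48, 73.3 ± 5.01 and 102 ± 19.7 counts per 100 (SD, n = 4). Counts of mt-Nd6 per 100 of mt-Nd5 varied less, at 18.7 ± 1.05, 20.96 ± 1.23 and 22.8 ± 1.87. The ratio between the ribosomal RNAs did not follow that order, with 61.8 ± 5.21, 70.0 ± 0.912 and 57.5 ± 8.78 counts of mt-Rnr1 per 100 of mt-Rnr2.

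**Figure D4:**
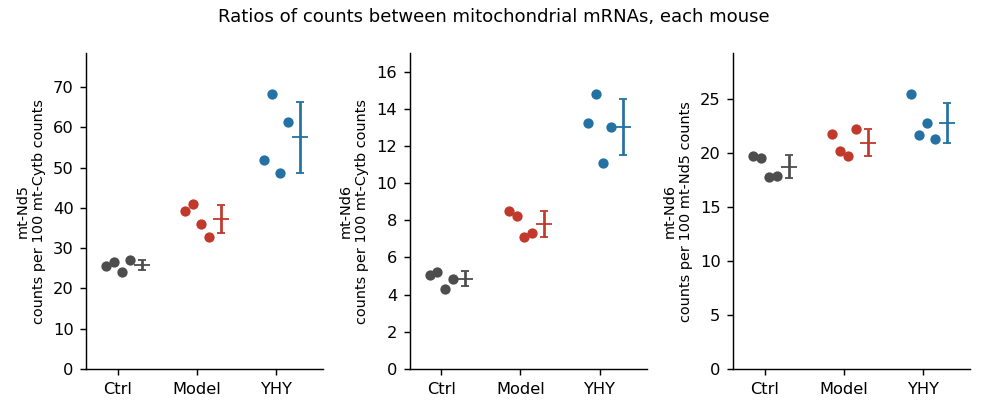
Counts of one mitochondrial messenger per 100 counts of another in each mouse (points), with mean and SD of the 4 mice of a group (bars). The mt-Nd5 to mt-Cytb ratio averages 25.8, 37.2 and 57.5 in Ctrl, Model and YHY, the mt-Nd6 to mt-Cytb ratio 4.84, 7.79 and 13.0, and the mt-Nd6 to mt-Nd5 ratio 18.7, 20.96 and 22.8.

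YHY against Ctrl shares its mice with both comparisons above and adds no independent mice. Of the 16 transcripts, 15 rose, beside 26.1% of all genes tested that rose and 24.2% that fell, and 14 stood apart in CPM, beside 21.9% of all genes. The median log2 fold change was 1.75, against 0.10 over all genes. The largest were 3.16 for mt-Nd6 (SE 0.298, adjusted p = 9.76e-07) and 2.91 for mt-Nd5 (SE 0.332, adjusted p = 4.71e-06), or 8.96-fold and 7.51-fold. The smallest were 0.79 for mt-Nd3 (SE 0.231, adjusted p = 0.00989) and 1.01 for mt-Atp8 (SE 0.465, adjusted p = 0.0837), the transcript that was not called. Scaling by library size alone moved the median of all genes to -0.33 and the split of all calls from 4547 higher and 4215 lower to 2365 and 5977, and it ended the call of mt-Nd3 (log2 0.29, adjusted p = 0.332). That call was also lost without Ctrl 1 (log2 0.61, adjusted p = 0.0526) and without Ctrl 3 (log2 0.62, adjusted p = 0.0525). The group means of the authors rest on 9 mice, without Ctrl 2, Model 1 and YHY 4. With only these 9 mice the call of mt-Nd3 was lost too (log2 0.67, adjusted p = 0.0543). For mt-Atp8 a call appeared without Ctrl 2 (log2 1.45, adjusted p = 0.0207) and without YHY 1 (log2 1.21, adjusted p = 0.0458). It also appeared with those 9 mice (log2 1.48, adjusted p = 0.0149), without a filter (log2 0.965, adjusted p = 0.0355) and with the replicate block (log2 1.05, adjusted p = 0.0130). The adjusted p of mt-Nd3 ran from 0.000142 to 0.332 over all alternatives, and that of mt-Atp8 from 0.0130 to 0.262.

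Shares of the pool stood apart between YHY and Ctrl for 7 transcripts. Those of mt-Co1, mt-Nd5 and mt-Nd6 were higher, by 1.17, 1.85 and 2.24 times in the means. Those of mt-Cytb, mt-Nd2, mt-Rnr1 and mt-Nd3 were lower, at 0.836, 0.771, 0.727 and 0.415 times the Ctrl mean. The exact p was 0.0286 for each. The mt-Nd2 share of YHY was 9.77, 9.73, 9.93 and 8.42%, and that of mt-Nd4, at 11.3, 9.83, 11.7 and 10.3%, overlapped with Ctrl (exact p = 0.114).

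Per kilobase of gene, levels spanned more than 3 orders of magnitude within a group. In Ctrl, mt-Cytb had 32286 ± 6612 CPM per kb, mt-Co1 25994 ± 4944, mt-Nd1 25067 ± 5657, mt-Nd2 19074 ± 3904 and mt-Nd4 14458 ± 3672 (SD, n = 4). Within single mice this order held in all 4 Ctrl mice, except that mt-Co1 exceeded mt-Nd1 in only 2. After a gap, which also held between any 2 Ctrl mice, came mt-Nd5 at 5240 ± 1182 and mt-Nd6 at 3469 ± 919 CPM per kb. Next were mt-Rnr1, mt-Rnr2, mt-Co2, mt-Tp, mt-Co3 and mt-Atp6, between 1518 and 2096 CPM per kb, where each exceeded the next in only 2 or 3 of the 4 mice. The lowest were mt-Nd3 with 505 ± 189, mt-Nd4l with 143 ± 81.2 and mt-Atp8 with 11.3 ± 6.68 CPM per kb.

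In Model the order began with mt-Co1 at 114811 ± 30398 CPM per kb, followed by mt-Cytb at 102876 ± 25774 and mt-Nd1 at 94445 ± 25542. Model mice had mt-Nd4 at 43235 ± 10737 and mt-Nd5 at 24136 ± 7306 CPM per kb. In YHY the means were closer, with 49705 ± 9719 for mt-Nd4, 39368 ± 14964 for mt-Nd5 and 31068 ± 10337 for mt-Nd6. In every Model and YHY mouse, mt-Nd4 exceeded mt-Nd5, and mt-Nd5 exceeded mt-Nd6. The messengers mt-Nd3, mt-Nd4l and mt-Atp8 kept the 3 lowest places in the means of all groups, down to 34.8 ± 21.9 CPM per kb in Model and 22.6 ± 8.67 in YHY for mt-Atp8. The gene of mt-Atp8 shares 43 of its 204 bases with mt-Atp6.

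**Figure D5:**
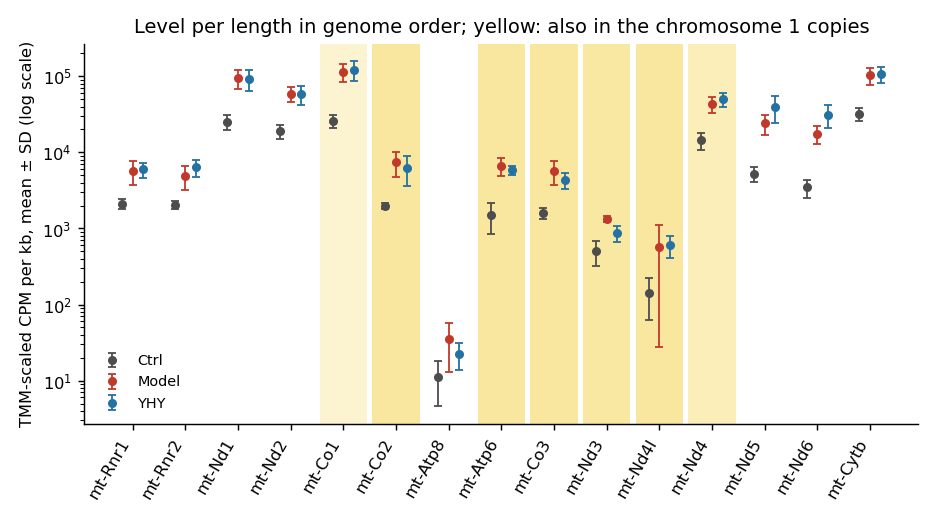
Level per length of the 13 mitochondrial messengers and both ribosomal RNAs, as TMM-scaled CPM per kb on a log axis (points, mean of 4 mice; bars, SD), in the order of the genome. Yellow bands mark the 7 genes with copies on chromosome 1, darker where more of the gene is repeated; mt-Atp8 lies lowest, at 11.3 CPM per kb in Ctrl.

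Some mitochondrial genes have near-identical relatives in the nuclear genome, which bears on how far their counts can be trusted. The count table lists 7 such copies side by side on the minus strand of chromosome 1, at chr1:24650616-24655278 in the coordinates of the authors, whose processing notes name GRCm39. Their GENCODE M21 transcripts were compared with the mitochondrial ones. The copies of mt-Co2, mt-Atp6, mt-Co3, mt-Nd4l and part of mt-Nd4 (876 bases) matched without a mismatch. Those of mt-Nd3 and of part of mt-Co1 (483 bases) each held 1 mismatch, T3C and A1066T, with positions counted from 1 at the first base of the mitochondrial gene and its base named first. Stretches of 40 bases around both are shown with the differing base in capitals, since these were the only mismatches within the aligned bases. Of the 492 bases of Gm29216, the copy of mt-Co1, 483 were aligned. The bases at its start lay outside the alignment and were not counted, so this copy may differ there too.
mt-Co1: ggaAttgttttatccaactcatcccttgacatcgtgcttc
Gm29216: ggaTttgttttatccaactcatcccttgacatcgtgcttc
mt-Nd3: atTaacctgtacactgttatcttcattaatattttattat
Gm28438: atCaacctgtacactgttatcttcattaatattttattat

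Of all windows of 100 bases, the copies held 99.5% for mt-Co2, 99.5% for mt-Atp6, 99.9% for mt-Co3, 97.6% for mt-Nd3, 98.5% for mt-Nd4l, 60.8% for mt-Nd4 and 26.3% for mt-Co1. They held none of those of mt-Nd1, mt-Nd2, mt-Nd5, mt-Nd6, mt-Cytb or the ribosomal RNAs. For mt-Atp8 none was found either, but the bases between the copies of mt-Co2 and mt-Atp6, where a repeat of it could lie, were not available. Counts were assigned to both places: of the counts of each pair, pooled over the 12 mice, the copy took 61.8% for mt-Nd3, 36.8% for mt-Atp6, 35.7% for mt-Nd4l, 34.0% for mt-Co2 and 31.5% for mt-Co3. For mt-Nd4 and mt-Co1 it took 1.19% and 0.706%. In single mice the part on the copy ran from 35.4 to 70.6% for mt-Nd3, 21.5 to 58.2% for mt-Atp6, 23.8 to 51.9% for mt-Nd4l, 18.7 to 51.5% for mt-Co2 and 20.3 to 46.4% for mt-Co3, so the pooled order need not hold in a mouse. Levels of the 5 transcripts that are almost wholly repeated are therefore uncertain, and so are their differences between groups. How reads from the repeated parts of mt-Nd4 and mt-Co1 were counted is not known either. Their levels, shares and ratios may therefore be affected as well. The 5 almost wholly repeated transcripts lay among the lower levels per length, below mt-Nd6 in all groups, and so did the ribosomal RNAs.

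The 7 copies together took 0.330% ± 0.0790 of the library for Ctrl, 0.958% ± 0.248 for Model and 0.752% ± 0.149 for YHY (SD, n = 4). Counted as mitochondrial, they would bring the share of the library to 19.9, 53.1 and 57.5%. With each pair summed, an alternative chosen after seeing the data, all 16 transcripts rose in Model against Ctrl, none was called in YHY against Model (edgeR) and 15 rose in YHY against Ctrl. Of a list of 10 supposed nuclear copies fixed beforehand, 9 were in the table and 7 were tested. The 6 of these that lie in the chromosome 1 block rose in Model. Gm28661 and Gm28437, the copies of mt-Co2 and mt-Co3, rose the most, by log2 2.42 (SE 0.433) and 2.13 (SE 0.431). The one that fell, Gm11808 (log2 -1.14, SE 0.235, adjusted p = 0.00138), lies outside that block. It was not among the copies compared by sequence, so it may not be a copy of mitochondrial sequence. Gm20594 was at 0 in every mouse, and the copy Gm10222 of mt-Nd4l was added to the comparison of sequences after the table was seen.

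Another property that the choice of genes did not use is how each messenger ends. In the GENCODE M21 transcripts, 10 of the 13 end in a whole stop codon. The other 3 (mt-Co3, mt-Nd4 and mt-Cytb) end in a bare T, which becomes a stop codon once the poly(A) tail is added. Their last 30 bases are shown beside those of mt-Co1, with the stop codon or its first base in capitals.
mt-Co1: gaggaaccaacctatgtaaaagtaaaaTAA
mt-Co3: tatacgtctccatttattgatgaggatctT
mt-Nd4: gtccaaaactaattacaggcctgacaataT
mt-Cytb: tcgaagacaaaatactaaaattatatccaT
All 3 with a bare T rose in Model against Ctrl, by log2 1.84, 1.58 and 1.67, and in YHY against Model they stood at -0.40, 0.20 and 0.05. Of these, the shares of mt-Nd4 and mt-Cytb were lower in Model, and mt-Nd2, the third with a lower share, ends in a whole stop codon.

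Transfer RNAs were nearly absent from these poly(A)-selected libraries. Of the 22 genes, 17 had 0 counts in all 12 mice, which allows a level of up to 0.0902 (Ctrl 1) to 0.123 (Model 4) CPM of the library. Only mt-Tp was tested, and its 67 bases are shown because it was well counted in every mouse, with the anticodon in capitals.
mt-Tp: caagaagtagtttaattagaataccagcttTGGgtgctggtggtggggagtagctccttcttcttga
It is encoded on the minus strand as the last gene before the control region. As for mt-Nd6, its counts may hold RNA of both strands, so they cannot be taken as the transfer RNA alone, and the same holds for mt-Ts1 below. Its counts were 5283, 5649, 4416 and 3688 for Ctrl, 7881, 11851, 12442 and 10690 for Model and 10713, 12872, 10058 and 12022 for YHY. Every Model and YHY mouse exceeded every Ctrl mouse, and mt-Tp rose by log2 1.90 (SE 0.288, adjusted p = 0.000133) in Model and 1.99 (SE 0.288, adjusted p = 4.02e-05) in YHY against Ctrl. Its share of the pool hardly differed, at 0.0757% ± 0.0114, 0.0772% ± 0.00955 and 0.0757% ± 0.00408 (SD, n = 4).

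The other 4 transfer RNA genes with any count were mt-Ts1, mt-Te, mt-Tn and mt-Td. For mt-Ts1, a serine transfer RNA on the minus strand whose gene shares 3 bases with the end of mt-Co1, there were no counts for Ctrl, 2, 0, 1 and 0 for Model and 68, 21, 6 and 0 for YHY. It did not pass the filter, and YHY 4 was at 0 like the Ctrl mice. The edgeR test without a filter called it higher in YHY than in Model (adjusted p = 0.00849, beside 3.55% of all genes called higher), as did DESeq2 (adjusted p = 0.00926). Counts of mt-Te were 4 in Ctrl 4, 1, 2 and 1 in YHY 1, 3 and 4 and 0 elsewhere, and mt-Tn (YHY 4) and mt-Td (Model 2) had 1 count each.

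Nuclear genes make every protein that transcribes, processes and degrades mitochondrial RNA. Of 54 tested genes of 5 lists that act on mitochondrial DNA or its RNA, 11 rose and 14 fell in Model against Ctrl (20.4% and 25.9%, beside 19.6% and 18.5% of all genes), with a median log2 fold change of -0.08. In YHY against Model, 2 rose and none fell by edgeR, below the 5.63% and 7.62% of all genes. They were Mterf3 (log2 0.64, SE 0.177, adjusted p = 0.0259), of the transcription termination factor family, and Mtpap (log2 0.66, SE 0.194, adjusted p = 0.0353), the mitochondrial poly(A) polymerase, both named after their values were seen. The call of Mterf3 was lost without Model 1, 3 or 4 or YHY 2 (adjusted p up to 0.0758), and that of Mtpap without any 1 Model mouse, YHY 1 or YHY 2 (adjusted p up to 0.105). In YHY against Ctrl, 15 rose and 18 fell (27.8% and 33.3%, beside 26.1% and 24.2% of all genes). The shares that rose were thus close to or below those over all genes.

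Of 10 genes of transcription, 3 rose and 4 fell in Model. The larger changes were Tefm, the elongation factor, which fell by 1.54 on the log2 scale (SE 0.241, adjusted p = 0.000170), and Mterf4, which fell by 0.67 (SE 0.179). Mterf1b and Mterf1a, of the termination factor family, rose by 1.29 (SE 0.371) and 1.06 (SE 0.263). Polrmt, the RNA polymerase and the most abundant of the list, rose by 0.49 (SE 0.155, adjusted p = 0.0199), while Tfam, which packages the mitochondrial DNA, fell by 0.55 (SE 0.138, adjusted p = 0.00511). Polrmt and Tfam were named after their values were seen, and the call of Polrmt was lost without Ctrl 1, 3 or 4 or Model 2 (adjusted p up to 0.111). Without Ctrl 1 only 1 of the list was called higher, and the adjusted p of Mterf1b was 0.05003.

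Of 11 genes of RNA processing, 1 rose and 4 fell. Fastk, an RNA-binding protein with a mitochondrial form that is known to stabilize the mt-Nd6 messenger, rose by log2 0.97 (SE 0.166, adjusted p = 0.000353). Fastkd5 and Grsf1, which act in the RNA granules of mitochondria, fell (log2 -1.08, SE 0.296, and -0.84, SE 0.168). Of 7 tested genes of polyadenylation, stability and decay, 1 rose and 2 fell. Supv3l1, a helicase of RNA decay, rose by 0.50 (SE 0.150, adjusted p = 0.0150), a call lost without Ctrl 1, 3 or 4 (adjusted p up to 0.0662). Rexo2, an exonuclease for short RNA, and Pde12, which removes poly(A), fell (log2 -1.08, SE 0.157, and -0.99, SE 0.209).

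Of 12 genes that maintain mitochondrial DNA, 4 rose and 1 fell in Model. Primpol, a primase, rose by log2 1.52 (SE 0.294), and Ssbp1, which binds single-stranded DNA, by 0.71 (SE 0.155). Rrm2b, a ribonucleotide reductase subunit, fell by 1.06 (SE 0.223). Only 2 were called higher without Ctrl 1 or without Ctrl 4. Of 14 genes that modify ribosomal or transfer RNA, 2 rose and 3 fell. Qtrt1, of queuosine synthesis, rose by 1.55 (SE 0.224) and Mrm1, a ribosomal RNA methyltransferase, by 0.72 (SE 0.198), while Pus1, a pseudouridine synthase, fell by 0.93 (SE 0.173). Cdk5rap1 fell by 0.95 (SE 0.337, adjusted p = 0.0355), and its call was lost without Ctrl 1, Ctrl 2, Model 3 or Model 4 (adjusted p up to 0.185). In that list 4 were called higher without Model 1, and 1 lower without Ctrl 1, Model 3 or Model 4. With library size alone, the calls of Polrmt, Mterf1a, Mterf1b, Supv3l1, Ssbp1 and Mrm1 were lost, with log2 values between 0.06 and 0.86.

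Most nuclear subunits of the same complexes were not called higher. Of 70 tested genes of complexes I, III, IV and V, 4 rose and 23 fell in Model against Ctrl (5.71% and 32.9%, beside 19.6% and 18.5% of all genes), with a median log2 fold change of -0.29. In YHY against Model, none rose by edgeR and 15 fell (21.4%, beside 7.62% of all genes, median -0.42). In YHY against Ctrl none rose and 46 fell (65.7%, beside 24.2% of all genes, median -0.76). Summed CPM of the 36 complex I genes was 6129 ± 875 for Ctrl, 5559 ± 1039 for Model and 4040 ± 755 for YHY, with overlap of Ctrl and Model and of Model and YHY. For the 15 ATP synthase genes it was 7652 ± 491, 4495 ± 908 and 3314 ± 657 (SD, n = 4), with overlap of Model and YHY.

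By complex, 4 of the 36 genes of complex I rose in Model and 9 fell. Ndufa5 and Ndufb7 rose by log2 0.82 (SE 0.190) and 0.67 (SE 0.174), Ndufa11 and Ndufs8 by 0.49 and 0.45, and Ndufb6 and Ndufv1 fell (log2 -1.27, SE 0.255, and -1.04, SE 0.166). The call of Ndufa11 was lost without Ctrl 1, 3 or 4 or Model 1 or 2 (adjusted p up to 0.150), and that of Ndufs8 without any of these or of Model 3 or 4 (adjusted p up to 0.203). The number that fell was 5 without Ctrl 2, Model 2, Model 3 or Model 4 and 15 without Model 1. The number that rose was 2 without Ctrl 1, Ctrl 3, Ctrl 4, Model 1 or Model 2, and 0 with library size alone, under which Ndufa5 and Ndufb7 had log2 values of 0.41 and 0.26. In complex III, 5 of 9 fell, led by Uqcrc2 and Uqcrc1, its core proteins, at log2 -1.47 (SE 0.168) and -0.89 (SE 0.191). In complex IV, 4 of 10 fell, with Cox5a at log2 -1.86 (SE 0.215) and Cox6a1 at -1.20 (SE 0.299). In ATP synthase, 5 of 15 fell, with Atp5pb at log2 -1.44 (SE 0.194) and Atp5b, the catalytic subunit, at -1.34 (SE 0.163), and 8 fell without Model 1. Complex II, which has no mitochondrially encoded subunit, had 3 of 4 genes that fell, with Sdha at log2 -1.32 (SE 0.164) and Sdhd at -1.12 (SE 0.156).

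RNAs that stay in the nucleus were looked at as well. Of 5 such transcripts, 4 rose in Model and 5 in YHY, both against Ctrl, and 2 (Malat1 and Neat1) rose in YHY against Model, beside 19.6%, 26.1% and 5.63% of all genes. That call of Neat1 was lost without Model 3 or Model 4 (adjusted p up to 0.0534). Tug1 was not called in Model (log2 0.25, adjusted p = 0.175), although it was called higher with upper-quartile scaling (log2 0.36, adjusted p = 0.0483). Kcnq1ot1 and Meg3 had the largest rises in Model, by log2 2.86 (SE 0.328) and 2.42 (SE 0.593). Neat1, the most abundant, had 210 ± 22.9 CPM for Ctrl, 462 ± 115 for Model and 781 ± 112 for YHY, and Malat1 had 125 ± 22.7, 274 ± 95.5 and 522 ± 63.2 (SD, n = 4). Summed over the list, CPM was 420, 427, 353 and 346 for Ctrl, 615, 1125, 791 and 713 for Model and 1386, 1368, 1178 and 1612 for YHY, with no overlap between the 3 groups, unlike the mitochondrial share, which overlapped between Model and YHY. Small RNAs of the nucleus had higher mean shares of the nuclear counts in the db/db groups. Small nuclear RNAs had 7.57 ± 1.02, 32.1 ± 11.8 and 32.99 ± 7.43 CPM of the nuclear counts, and small nucleolar RNAs 10.7 ± 1.23, 35.8 ± 7.29 and 43.5 ± 6.83. RNA integrity values of single mice were not given, and the part of these RNAs in the mitochondrial results was not tested.

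Markers of kidney cell types were present, which does not tell whole kidney from cortex, and several moved between groups. In Model against Ctrl, 7 of the 38 tested markers of all lists rose and 13 fell (18.4% and 34.2%, beside 19.6% and 18.5% of all genes). Of 8 proximal tubule markers, 3 fell in Model, with Slc7a13 at log2 -2.33 (SE 0.286), Lrp2 at -1.68 (SE 0.295) and Cubn at -0.90. The other 5 were not called, with log2 values of -0.73 (Slc22a6), -0.48 (Slc13a3), 0.06 (Slc34a1), 0.42 (Slc5a2) and 0.79 (Slc5a12). Under 7 of 17 alternatives Slc22a6 was called lower (adjusted p from 0.00301 to 0.169). With library size alone Slc13a3 was called lower as well (log2 -0.87, adjusted p = 0.0178). Summed CPM, in which the phosphate transporter Slc34a1 was the most abundant, was 5095, 6492, 5372 and 3865 for Ctrl, 3880, 3631, 3903 and 2943 for Model and 1511, 3305, 2043 and 4224 for YHY. Of 4 markers of the thick ascending limb, 3 fell, with Umod at log2 -2.86 (SE 0.385) and Cldn16 at -1.29 (SE 0.325). Their summed CPM, led by Slc12a1, was 1969, 1102, 2240 and 2364 for Ctrl, 1160, 917, 745 and 1111 for Model and 1328, 866, 2133 and 1213 for YHY.

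Of 3 distal convoluted tubule markers, 2 rose, Trpm6 by log2 2.07 (SE 0.367) and Slc12a3, the most abundant, by 1.33 (SE 0.219). Summed CPM was 220, 317, 179 and 179 for Ctrl, 429, 469, 485 and 498 for Model and 347, 572, 339 and 367 for YHY, with every db/db mouse above every Ctrl mouse. Pvalb, the third, was not called in Model (log2 0.26, adjusted p = 0.590) and was lower in YHY than in Model (log2 -1.59, SE 0.359, adjusted p = 0.0102) and than in Ctrl (log2 -1.33, SE 0.357, adjusted p = 0.00549). Of 6 tested collecting duct markers, 2 fell, Aqp3 (log2 -1.72, SE 0.300) and Aqp2, the most abundant (log2 -1.18, SE 0.418, adjusted p = 0.0354). The call of Aqp2 was lost without Ctrl 1, Ctrl 4, Model 2, Model 3 or Model 4 (adjusted p up to 0.139). Summed CPM of that list was 904, 602, 621 and 1443 for Ctrl, 617, 397, 494 and 439 for Model and 621, 271, 391 and 253 for YHY. Of 5 podocyte markers, 2 rose, Nphs1 by 1.86 (SE 0.2497) and Synpo by 0.53 (SE 0.197, adjusted p = 0.0435). The call of Synpo was lost without any 1 of the Ctrl mice or of Model 1, 2 or 3 (adjusted p up to 0.196). Podocyte markers, with Podxl the most abundant, summed to 107, 120, 147 and 140 CPM for Ctrl, 250, 126, 142 and 100.2 for Model and 74.1, 118, 81.7 and 153 for YHY.

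Markers of cells from outside the nephron were looked at as well. Of 5 red blood cell markers, 1 rose and 3 fell in Model: Hba-a2 by log2 0.70 (SE 0.262, adjusted p = 0.0452), and Alas2 and Hbb-bs, which fell (log2 -1.87, SE 0.475, and -1.46, SE 0.364). Without Ctrl 4, Alas2 was at -1.27 (adjusted p = 0.0264). The call of Hba-a2 was lost without any 1 of Ctrl 1, 2 or 3 or of the 4 Model mice (adjusted p up to 0.157). The list, led by Hba-a1, summed to 458, 306, 373 and 686 CPM for Ctrl, 476, 430, 293 and 271 for Model and 492, 324, 791 and 1061 for YHY. Of 6 tested immune markers, Cd68 rose by 1.05 (SE 0.276) and C1qa and C1qb fell (log2 -1.08, SE 0.225, and -1.003, SE 0.267). Their sum, led by Csf1r, was 116, 79.0, 116 and 99.4 CPM for Ctrl, 62.9, 89.0, 79.5 and 113 for Model and 89.6, 114, 107 and 62.3 for YHY, with overlap throughout. With library size alone, the calls of Synpo, Hba-a2 and Cd68 were lost.

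None of the 5 fat markers reached the filter on low counts. Brown fat is rich in mitochondria, and its defining gene Ucp1, the most abundant of the list, averaged 0.139 CPM over the 12 mice. The list summed to at most 1.57 CPM in any mouse (Model 2), and Plin1 and Lep were at 0 in all Ctrl mice. Of the 4 adrenal markers only Star was tested, and it rose by log2 1.32 (SE 0.270), with a summed CPM of the list of 1.85, 2.06, 1.27 and 1.71 for Ctrl, 3.09, 5.76, 4.43 and 3.63 for Model and 3.40, 3.26, 3.80 and 4.03 for YHY. No marker of any of these lists was at 0 in every mouse.

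In YHY against Model, 2 of the 38 tested markers rose and 3 fell (5.26% and 7.89%, beside 5.63% and 7.62% of all genes). Hbb-bs and Alas2 rose, by log2 1.29 (SE 0.363, adjusted p = 0.0280) and 1.71 (SE 0.477, adjusted p = 0.0274), after their fall in Model against Ctrl. These calls were lost without any 1 Model mouse and without YHY 3, and for Hbb-bs also without YHY 4 (adjusted p up to 0.0813 and 0.0786). Besides Pvalb, Slc7a13 fell (log2 -1.11, SE 0.277, adjusted p = 0.0162), and so did Atp6v1g3 of the collecting duct (log2 -1.13, SE 0.228, adjusted p = 0.00568). In YHY against Ctrl, 10 of the 38 rose and 14 fell (26.3% and 36.8%, beside 26.1% and 24.2% of all genes). Of the proximal tubule markers, 5 of 8 fell and 1 rose. The part of cell types in the mitochondrial results was not tested.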

How the data were processed

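Kidney poly(A) RNA of 12 mice was sequenced. The authors deposited raw counts per gene for each mouse, with gene coordinates and lengths. Their notes name FastQC 0.11.9, Trimmomatic 0.39, HISAT2 2.2.1, SAMtools 1.12, featureCounts 2.0.1, DESeq2 1.34.0 and GRCm39. Strand setting and multi-mapping reads were not given in the sources used here. The authors' comparison tables hold normalized values, group means, log2 fold changes and p-values, and the 12 columns per mouse in them were not used because some name the wrong mouse. The 480 entries without a mouse Ensembl gene ID held 0.172% of counts.

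Groups followed the labels. All 12 mice entered 1 edgeR 4.0.16 fit (R 4.3.3; filterByExpr, TMM, quasi-likelihood, two-sided, Benjamini-Hochberg over 17431 genes). Shares were tested by two-sided exact permutation (scipy 1.17.1). Sums over mitochondrial genes got no p, and the same test of ratios was run but its p-values are not given. Sequences were compared with Biopython 1.88. Alternatives were 3 other scalings, DESeq2 1.42.0, no filter, subsets of mice and a replicate block.

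All messenger and ribosomal genes are named, with the 5 most abundant transfer RNAs. From other lists, called genes with the 2 largest rises and 2 largest falls in Model against Ctrl are named, and for markers the most abundant. The most abundant gene of a list is the one with the highest mean CPM over the 12 mice, and need not lead in every group. Other list genes were named after their values were seen. Genes and lists were chosen with earlier results of these data known.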

Additional observations from a re-analysis of the deposited data

Results flagged for a closer look

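Within each group of 4 mice, the highest or lowest value was compared with its nearest neighbor, and its gap was divided by the range of the group. A ratio above the Dixon limit set the mouse apart. Of 99 groups of values tested, 12 held such a mouse. Chance gives about 1 in 20 for values that are normally distributed. The groups hold levels and shares of the same genes and are not independent, so the number of flags cannot be judged against that rate.

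Ctrl 2 was apart in 5. Its mitochondrial share of the library was 22.7%, against 18.4 to 18.6% in the other Ctrl mice (gap ratio 0.962). It was higher in CPM of mt-Nd5, at 12785 against 8313 to 8596 (0.937), of mt-Nd2, at 25845 against 17445 to 18375 (0.889), and of mt-Co1, at 51482 against 35464 to 38045 (0.839). Its share of mt-Co2 in the mitochondrial pool was lower, at 0.556% against 0.9505 to 0.987% (0.916). YHY 2 was apart in the mitochondrial share of the library, at 64.6% against 53.8 to 54.6% (0.933), and in CPM of mt-Nd2, at 87384 against 50803 to 52798 (0.945).

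Model 1 was low in both ribosomal RNAs, at 2553 CPM against 6393 to 6555 for mt-Rnr1 (0.960) and 3721 against 9101 to 9280 for mt-Rnr2 (0.968). Single shares of the pool stood apart for mt-Nd3 in Ctrl 4, at 0.199% against 0.0765 to 0.0913% (0.878), for mt-Nd4l in Model 2, at 0.0552% against 0.0147 to 0.0193% (0.887), and for mt-Nd2 in YHY 4, at 8.42% against 9.73 to 9.93% (0.868). What sets these mice apart was not tested.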

How the results depend on the processing

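All 16 transcripts stayed called higher in Model against Ctrl under each other scaling, DESeq2, no filter, the subsets of mice and the replicate block, and 15 to 16 when 1 mouse was left out. In YHY against Ctrl, 14 to 17 were called. In YHY against Model, where edgeR called 0, library size alone gave 1 (mt-Nd6, adjusted p = 0.0314), no filter 1 (mt-Ts1), the replicate block 1 (mt-Nd6, adjusted p = 0.0305), DESeq2 3, and leaving out 1 mouse 0 to 1. Replicate numbers do not pair mice, and the cause of these changes was not tested.

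Shares that did not overlap in Model against Ctrl numbered 6, and 10 with the 9 mice behind the group means of the authors, where fewer mice overlap more rarely. The mice left out there, Ctrl 2, Model 1 and YHY 4, are among those flagged above. Leaving out 1 mouse gave 3 to 5 in YHY against Model. The mitochondrial share of the library was 18.5 to 19.9% in Ctrl, 49.9 to 55.8% in Model and 54.2 to 57.8% in YHY when 1 mouse was left out.

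Small log2 fold changes in YHY against Model changed sign. With the 9 mice they were -0.0768 for mt-Co1, -0.0670 for mt-Cytb, -0.0385 for mt-Nd2, -0.28 for mt-Rnr1, -0.0837 for mt-Tp and -0.38 for mt-Nd4l. For mt-Nd2 they were -0.00414 with library size alone, -0.00648 without a filter and -0.00911 with the replicate block, and for mt-Nd1 0.00361 with only the 2 groups fitted. When 1 mouse was left out they ranged from -0.13 to 0.19 for mt-Co1, -0.11 to 0.19 for mt-Cytb, -0.28 to 0.0610 for mt-Nd1, -0.22 to 0.14 for mt-Nd2, -0.19 to 0.20 for mt-Rnr1, -0.30 to 0.00650 for mt-Atp6, -0.15 to 0.20 for mt-Tp and -0.21 to 0.99 for mt-Nd4l. The difference in mt-Rnr1 share ranged from -0.0987 to 0.0737 points.

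Summing each transcript with its chromosome 1 copy, and adding the copies to the library share, were chosen after seeing the data. Of 1103 other values of list genes in Model against Ctrl, 66 lost their call, 9 gained a call and 7 changed sign. With library size alone log2 values were -0.36 for Slc34a1, -0.10 for Pvalb and -0.19 for Tug1, and without 1 mouse they ran from -0.13 to 0.24 for Slc34a1 and from -0.0974 to 0.50 for Pvalb. The transfer RNAs that were not tested had at most 68 counts in any mouse, and mt-Atp8 had as few as 51. These low counts limit what can be said of them, and their cause was not tested.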
